A study of Mus musculus with 6 samples.

Results

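The miRNAs of the miR-297, miR-466, miR-467 and miR-669 families, most of which are made from one intron of the mouse gene Sfmbt2, were examined in the small RNA of mature sperm from the cauda epididymis. Members were the rows of the deposited miRNA table in which any name has one of these 4 family numbers followed by a letter, on either arm of the hairpin; 47 of the 778 rows met this rule. The samples came from C57BL/6 mice 8 weeks old. There were 3 samples of normal mice and 3 of mice with stress-induced depression, called normal and stress below; the labels name no other treatment or allele and do not say how the stress was applied. They do not say whether the replicates of a group are separate animals, so p-values reflect how far these 6 samples scatter, and that scatter may be technical.

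Sfmbt2 encodes a Polycomb group protein with MBT repeats and is an imprinted gene, expressed from the paternal allele in the early mouse embryo and the placenta. Its large intron holds a rodent-specific array of tandemly repeated hairpins that gives the array its miRNAs. A miRNA hairpin is cut into a 5p and a 3p arm, and a mature miRNA recognises targets mainly through its seed, bases 2 to 8. The repeats are built on UG on the 5p side and CA on the 3p side, so many members differ by a few bases only.

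In the GRCm38 annotation, 119 miRNA genes lie inside Sfmbt2 (chromosome 2, 10370510 to 10595253, plus strand), 71 of them with a Mir name, over 53.0 kb from 10465287 to 10518279. None overlaps an exon of Sfmbt2, and all lie in the intron from 10461473 to 10523944. The sequence of 42 of the 47 members was found in at least 1 of these hairpins, and 2 of the 42 (miR-466f-3p and miR-297a-5p) also in hairpins elsewhere. The other 5 members, miR-466i-5p, miR-466i-3p, miR-466j, miR-466k and miR-467h, were found only in hairpins outside Sfmbt2, so the cluster's name does not hold for them. All 71 named hairpins of the intron belong to the 4 families, so no further miRNA with a Mir name lies there. The files name no genome build, and these positions come from a match of the deposited sequences to the annotated hairpins.

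The sequences below are those that the results turn on, as the deposited table gives them, 5′ to 3′, with the seed in capitals. The first line is the member that carries most of the reads, the next 3 are 5p members of the same family that share a run of 11 or 12 bases with it, and the 3 after that are miR-467 5p members.
miR-669c-5p: aUAGUUGUguguggaugugugu
miR-669o-5p: uAGUUGUGugugcauguuuaugu
miR-669a-5p/miR-669p-5p: aGUUGUGUgugcauguucaugucu
miR-669l-5p: aGUUGUGUgugcauguauaugu
miR-467a-5p: uAAGUGCCugcauguauaugcg
miR-467b-5p: gUAAGUGCcugcauguauaug
miR-467c-5p: uAAGUGCGugcauguauaugug
miR-466i-5p: uGUGUGUGugugugugugug
miR-669a-3p/miR-669o-3p: aCAUAACAuacacacacacguau
miR-467a-3p: cAUAUACAuacacacaccuaca
The last 3 are a pure UG repeat and a pair of 3p members with CA repeats. miR-669c-5p shares its seed with no other member, and its nearest member, miR-669o-5p, is 5 single-base edits away. The 47 members carry 28 different seeds. The largest group, UAUACAU, holds 4 3p members (of miR-467c, miR-467d, miR-467e and miR-669m), and GUUGUGU is shared by miR-669a-5p/miR-669p-5p, miR-669f-5p and miR-669l-5p. The letters UGUGUG stand in 18 of the 24 5p members and ACACAC in 14 of the 19 3p members; 4 members have no arm in their name. UGUGUG stands in 4.24% and ACACAC in 2.57% of all 778 rows, on the strand as listed.

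Some counts are fractions: 24 members have a fractional count in at least 1 sample, and 6 rows combine several names. Dividing a read that matches more than 1 row would give such fractions, but how reads were assigned is not given. miR-467a-5p and miR-467b-5p hold the same value in every sample, as do miR-467a-3p and miR-467d-3p, so each pair is 1 measurement. Single values of such near-identical members are uncertain for this reason. miR-669c-5p has whole counts in every sample and was found in 1 hairpin only, Mir669c (chromosome 2, mature sequence 10509319 to 10509340, in the Sfmbt2 intron). The nearest RefSeq mature miRNA outside the table, miR-669n on chromosome 3 (115979905 to 115979924, GRCm38.p6), shares a run of 18 bases with it and was not analysed here. Whether all reads counted as miR-669c-5p come from Mir669c was not tested.
miR-669n: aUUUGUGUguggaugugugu

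Depth was 1010203 to 3067208 miRNA reads per sample, with normal replicate 3 the deepest. Levels are given as RPM (reads per 1000000 miRNA reads of the sample), or as CPM scaled by TMM, a factor set by the bulk of the miRNAs. These factors were 0.683 to 0.860 in normal and 1.24 to 1.38 in stress samples, so the scales differ between the groups, and both are given where it matters. The male germ cell miRNAs that mark the labelled cell type took 0.677% to 0.884% of the miRNA reads in normal and 0.712% to 0.866% in stress samples (19 of 20 names present). Markers of other cells were present too. The share of 6 epithelial miRNA names was 1.24% to 1.75% in normal and 2.91% to 3.22% in stress samples, a list led by the miR-200 family. Stromal, smooth muscle and endothelial miRNAs (6 of 7 names present) took 0.268% to 0.496% and 0.934% to 1.09%, leukocyte miRNAs (5 of 5) 0.0360% to 0.0814% and 0.135% to 0.189%, and red blood cell miRNAs (4 of 4) 0.0341% to 0.102% and 0.0268% to 0.0817%. On this share scale the median log2 fold change of all 236 tested rows, stress minus normal, was 0.76. With TMM scaling it was 0.00. The tested marker rows then had medians of 0.41 (epithelial), 0.522 (stromal, smooth muscle and endothelial), 0.865 (leukocyte) and −1.469 (red blood cell). Of 8 tested rows in the stromal list, 2 were higher in edgeR (adjusted p under 0.05). Of 8 epithelial, 5 leukocyte and 3 red blood cell rows, 0 passed. Of the marker rows, 1 epithelial row was at 0 in all stress samples and 4 germ cell rows in all normal samples. The part of these other cells in the results below was not tested, and in such bulk samples fewer cells of a type and less RNA per cell cannot be told apart.

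miR-669c-5p held most of the members' reads and was lower in stress sperm. It held 8611 of the 10300 reads that all members had over the 6 samples, 36.6 times as many as the next row, miR-467b-5p, and 18.3 times as many as miR-467a-5p and miR-467b-5p together (470.8 reads). Its counts were 3535, 1512 and 2419 in normal replicates 1 to 3 and 412, 444 and 289 in stress replicates 1 to 3. It ranked 24th, 34th and 45th among the rows of the table in the normal samples and 73rd, 80th and 85th in the stress samples.

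The rows that match the hairpins beside Mir669c had far fewer reads. Mir297c ends 182 bases before Mir669c, and the combined miR-297a-3p/miR-297c-3p/miR-297b-3p row, which also has other sources, had 23 reads in all. Mir669a-2 begins 759 bases after it, and the miR-669a rows, whose sequences stand in 13 or more hairpins each, had 191.5 reads together. Of the 21 members found in exactly 1 hairpin of the intron, the 20 others had between 1 read and 140.25 reads, the most in miR-467c-5p, with a median of 6.67.

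**Figure D1:**
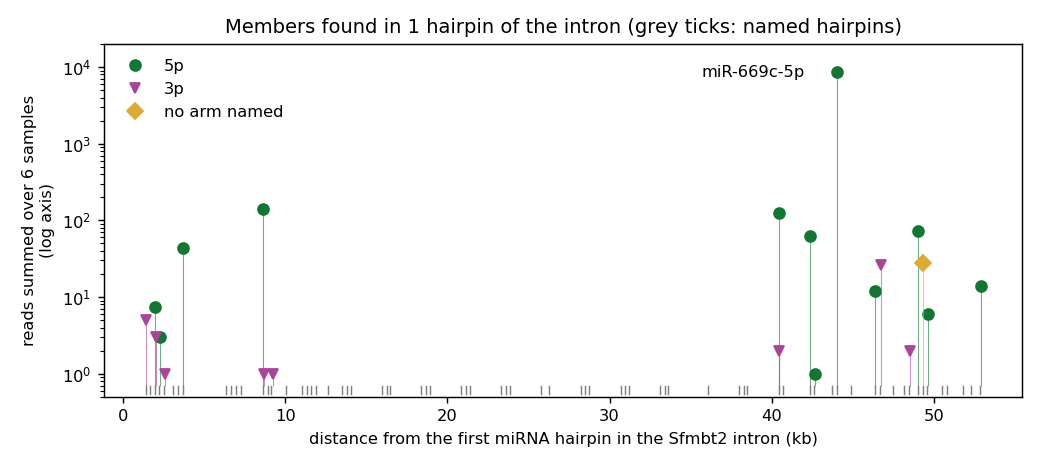
Reads summed over the 6 samples (log axis) for the 21 members found in exactly 1 hairpin of the Sfmbt2 intron, against the distance of the mature sequence from the first hairpin in kb; circles are 5p, triangles 3p, and the diamond a member with no arm named, while grey ticks mark the 71 named hairpins. miR-669c-5p stands at 8611 reads and no other member shown passes 140.25.

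As a share of the miRNA reads, miR-669c-5p stood at 0.326%, 0.136% and 0.0789% in normal replicates 1 to 3 and at 0.0394%, 0.0292% and 0.0286% in stress replicates 1 to 3. Every normal sample was above every stress sample, and the normal samples spread over a wider range than the stress samples. The mean share was 0.180% ± 0.130 (SD, n = 3) in normal and 0.0324% ± 0.00607 in stress samples, 5.57-fold lower in stress (exact permutation test, two-sided, p = 0.1, n = 3 per group, the smallest p this design allows). Without normal replicate 1 the mean normal share was 0.107% and the share was 3.32-fold lower in stress. On the TMM scale the values were 4225, 1989 and 917.6 CPM in normal and 305.6, 234.7 and 207.8 CPM in stress samples. In edgeR's quasi-likelihood test over 236 tested rows the log2 fold change, stress minus normal, was −3.25 ± 0.50 SE (adjusted p = 0.0044), with 3 of 3 stress samples below the whole normal group. Without normal replicate 1, the highest sample, the log2 fold change was −2.57 (adjusted p = 0.011); scaled to the miRNA total it was −2.48 (adjusted p = 0.0082).

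The other 46 members together did not follow it. They took 140.3, 113.7 and 155.5 RPM in normal replicates 1 to 3 and 244.8, 264.6 and 271.2 in stress replicates 1 to 3. As a share of the reads they were thus higher in every stress sample, with means of 136.5 ± 21.2 (SD, n = 3) and 260.2 ± 13.8 RPM. This is a log2 ratio of 0.93, where the median log2 fold change of all 236 tested rows was 0.76 when scaled to the miRNA total. On the TMM scale the gap narrowed to 176.3 ± 8.63 CPM in normal and 199.98 ± 11.8 CPM in stress samples, which still did not overlap (166.4 to 181.7 against 189.9 to 213.0 CPM). miR-669c-5p accounted for 95.9%, 92.3% and 83.5% of all member reads in the normal samples and for 61.7%, 52.4% and 51.3% in the stress samples. All members together stood at 1940 ± 1295 RPM in normal and 584.1 ± 47.3 in stress samples, a sum set mostly by that miRNA and, in the normal group, by replicate 1. No test was made of these sums, since the members were chosen with earlier results known.

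**Figure D2:**
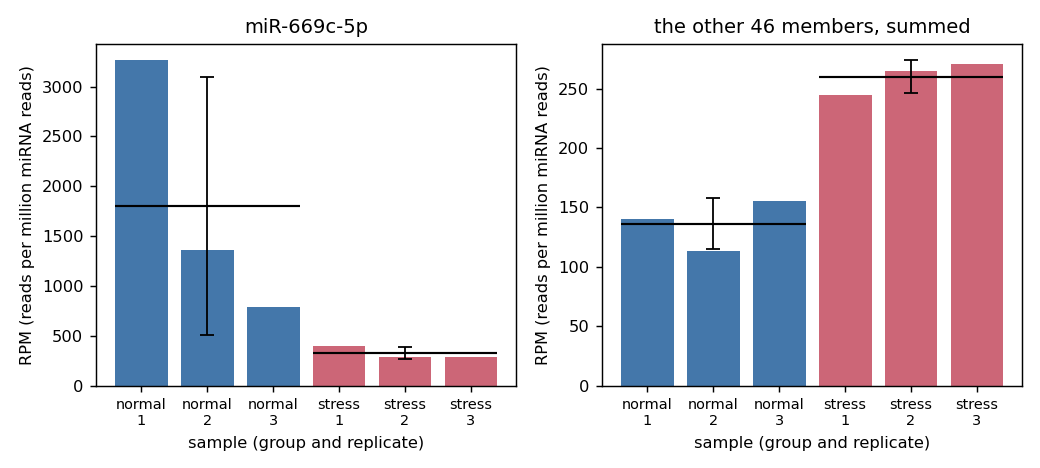
RPM in each sample for miR-669c-5p (left) and for the sum of the other 46 members (right); bars are samples, horizontal lines group means, and error bars the SD of 3 samples. miR-669c-5p is highest in the normal samples (mean 1804 against 323.9 RPM), while the sum of the others is higher in the 3 stress samples (244.8 to 271.2 against 113.7 to 155.5).

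Of the 47 members, 8 had enough reads to be tested (a minimum count of 10 in edgeR's filterByExpr, a level set at the median depth and asked for in as many samples as 1 group holds). Of these 8, 1 fell (miR-669c-5p), 0 rose and 7 did not pass, where 12.7% of all 236 tested rows passed (10.2% lower, 2.54% higher). Since miR-467a-5p and miR-467b-5p are 1 measurement, the 8 rows hold 7 separate ones. The 8 log2 fold changes had a median of 0.18, against 0.00 for all rows tested; 6 were above 0 and 2 below. With an unadjusted p under 0.05 there were 2 members and 76 rows in all. The TMM-scaled values of 2 tested members did not overlap between the groups, against 39.8% of all tested rows.

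The second member without overlap was the combined miR-669a-3p/miR-669o-3p row. It stood at 1.195, 1.32 and 8.91 CPM in normal replicates 1 to 3 and at 11.1, 13.7 and 16.5 CPM in stress replicates 1 to 3. The log2 fold change of 1.42 ± 0.62 SE did not pass in edgeR (adjusted p = 0.14). Normal replicates 1 and 2 held 1 read each, below the 3 reads that a count of 0 allows, while normal replicate 3 held 23.5. The row passed in edgeR without normal replicate 3 (log2 fold change 3.39, adjusted p = 0.026) and when scaled to the miRNA total (2.12, adjusted p = 0.024). It met the low-count filter through the stress samples only, where it is high. Its lack of overlap and these passes therefore give no separate support. Without normal replicate 3, 33 of 255 tested rows were called lower and 22 higher. Scaled to the miRNA total, 96 of all 236 tested rows were called higher and the median log2 fold change was 0.76.

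Of the 8 other 5p rows of the miR-669 family, 2 had enough reads to be tested, and neither passed in edgeR. miR-669a-5p/miR-669p-5p, from the opposite arm of many of the same hairpins, stood at 10.8, 13.2 and 8.72 CPM in normal and 12.6, 14.3 and 11.5 CPM in stress samples (log2 fold change 0.29 ± 0.41 SE, adjusted p = 0.66). miR-669o-5p, the closest relative of miR-669c-5p in sequence, stood at 21.5, 2.63 and 7.59 CPM in normal and 7.42, 8.46 and 5.27 CPM in stress samples. The highest and the lowest of its 6 values were both normal, and the log2 fold change was −0.53 ± 0.64 SE (adjusted p = 0.60). Without normal replicate 1 it was 0.26, and scaled to the miRNA total 0.17, so its direction was not stable.

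After miR-669c-5p, the 4 rows with the most reads were miR-467 5p members, and the fifth miR-467 5p row, miR-467d-5p, had fewer reads than several miR-669 rows. miR-467a-5p and miR-467b-5p, which hold the same values, were at 16.7, 29.8 and 25.7 CPM in normal and 18.9, 39.8 and 21.8 CPM in stress samples (0.15 ± 0.39 SE on the log2 scale, adjusted p = 0.81 in edgeR). Their direction turned without normal replicate 1 (−0.05) and without stress replicate 2 (−0.24). miR-467c-5p, from Mir467c (chromosome 2, 10473941 to 10473962), was at 16.3, 8.77 and 13.0 CPM in normal and 20.4, 15.6 and 20.7 CPM in stress samples (0.55 ± 0.38 SE, adjusted p = 0.33 in edgeR). It passed only when scaled to the miRNA total (1.28, adjusted p = 0.026 in edgeR). In that setting 96 of all 236 tested rows were called higher and their median was 0.76. miR-467e-5p was at 9.56, 11.8 and 15.6 CPM in normal and 21.1, 13.7 and 10.1 CPM in stress samples, with the groups overlapping (0.21 ± 0.43 SE, adjusted p = 0.76 in edgeR). As a share of the miRNA reads the 5 miR-467 5p rows stood at 62.2 ± 10.005 RPM in normal and 123.3 ± 17.0 in stress samples, but on the TMM scale they stood at 80.5 ± 7.68 and 95.2 ± 17.8 CPM (SD, n = 3 each).

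Bases 2 to 7 of miR-467a-5p, miR-467c-5p and miR-467d-5p are AAGUGC, the hexamer also found at this place in the miR-290 cluster of embryonic stem cells. In these libraries the 3 members held 235.4, 140.25 and 63.4 reads over the 6 samples, while miR-294-3p, miR-292a-3p and miR-291a-3p, the other rows with it, held 7, 2 and 1.

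**Figure D3:**
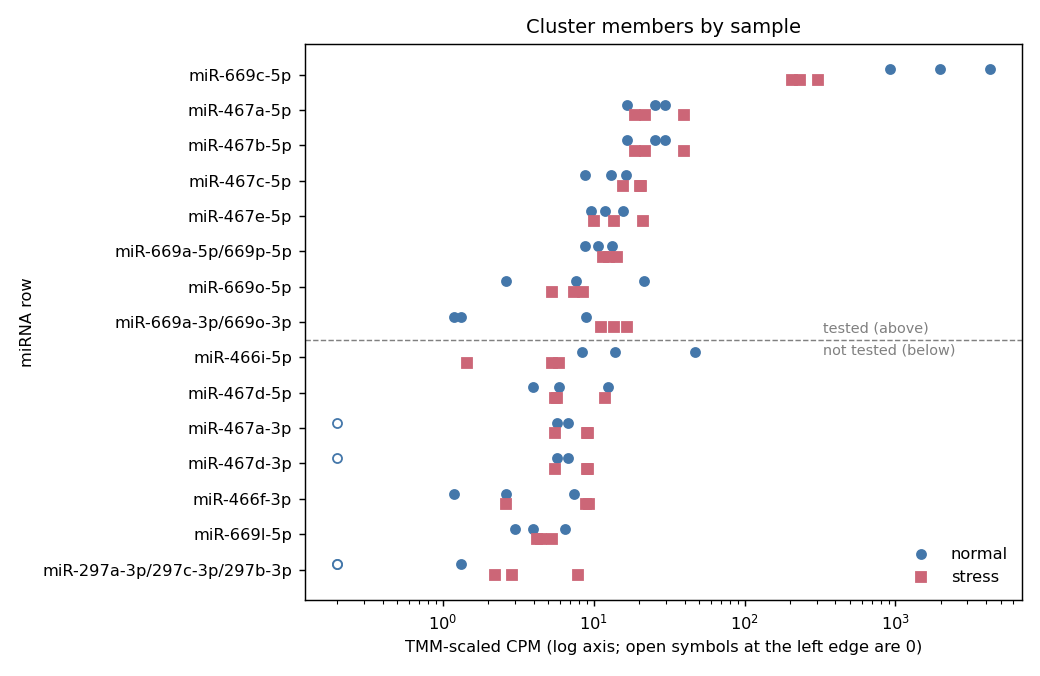
TMM-scaled CPM (log axis) of the 8 tested members (above the dashed line) and of the 7 named members that were not tested (below it); circles are the 3 normal and squares the 3 stress samples, and open symbols stand for 0. miR-669c-5p separates the groups by the widest gap (917.6 CPM or more against 305.6 or less), and most other members overlap.

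Of the 39 members that were not tested, those with the most reads were miR-466i-5p, miR-467d-5p, the 3p arms miR-467a-3p and miR-467d-3p, miR-466f-3p and miR-669l-5p, and in the miR-297 family the combined miR-297a-3p/miR-297c-3p/miR-297b-3p row. miR-466i-5p, the UG repeat, had 39, 10.5 and 22 reads in normal and 8, 10 and 2 reads in stress samples. On the TMM scale it stood at 46.6, 13.8 and 8.34 CPM in normal and 5.93, 5.29 and 1.44 CPM in stress samples, without overlap. In an edgeR fit with no filter on low counts its log2 fold change was −2.32 ± 0.58 SE (adjusted p = 0.0024). The p-values of that fit are not comparable with those of the main edgeR fit: miR-669c-5p had adjusted p = 1.2e-22 in it, against 0.0044. Among the fits with 1 sample left out, miR-466i-5p was called only without stress replicate 1. There it met the low-count filter through normal samples alone, where it is high, so this call adds no separate support. A repeat of UG alone can match reads from many places, and the sequence was found in 61 miRNA hairpins of the annotation, none of them inside Sfmbt2.

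miR-467d-5p had 10.3, 3 and 15.5 reads in normal and 16, 10.8 and 7.75 reads in stress samples. miR-669l-5p had 2.5, 3 and 17 reads in normal and 6, 8 and 7.33 in stress samples, and in CPM (2.99, 3.95 and 6.45 against 4.45, 4.23 and 5.27) its groups overlapped. The 3p arms miR-467a-3p and miR-467d-3p, 1 measurement, had 0, 4.33 and 17.8 reads in normal and 12.3, 10.5 and 12.5 in stress samples; the 0 in normal replicate 1 allows up to 2.77 RPM (3 reads, counting error only). miR-466f-3p had 1, 2 and 19.5 reads in normal and 12, 5 and 13 in stress samples. The combined miR-297 3p row had 0, 1 and 0 reads in normal and 3, 15 and 4 in stress samples, or 0, 1.32 and 0 CPM against 2.23, 7.93 and 2.88 CPM, without overlap. Its log2 fold change in the edgeR fit with no filter was 3.69 ± 1.43 SE and did not pass (adjusted p = 0.12); the normal samples held 1 read in all, so this value depends on the prior count. Of the 39 members that were not tested, miR-466i-5p alone passed in the fit with no filter. The TMM-scaled values of 4 of the 39 did not overlap between the groups, against 8.67% of all 542 rows not tested. They were miR-466i-5p and the miR-297 3p row and, named after their values were seen, miR-466b-5p/miR-466o-5p and miR-466e-5p, which had 10.3 and 4 reads in all and were lower in stress samples. The 32 members not given sample by sample, these last included, had 1 to 43.7 reads each over all samples and at most 12 in any sample.

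By number of members, 24, 24 and 35 of the 47 were detected in normal replicates 1 to 3 and 26, 34 and 31 in stress replicates 1 to 3, with the most in the deepest library. In all, 14 members were seen in every sample and 12 in 1 sample only. By family, miR-297 had 3 rows, miR-466 had 19, miR-467 had 10 and miR-669 had 15.

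The arms of the hairpins differed. Without miR-669c-5p, the 23 rows of 5p arms took 130.2, 85.8 and 113.7 RPM in normal and 166.4, 200.3 and 164.3 in stress samples. The 19 rows of 3p arms took 4.62, 27.9 and 39.4 RPM in normal and 73.6, 63.7 and 95.0 in stress samples. Both sums were thus higher in all stress samples as a share of the reads. On the TMM scale the 5p sum overlapped (142.1 ± 23.1 CPM in normal, 136.5 ± 21.9 in stress, SD, n = 3), while the 3p sum did not (30.9 ± 21.7 and 59.1 ± 9.05 CPM). Normal replicate 1 had 5 reads of 3p arms in all, and 96.6% of its arm reads (miR-669c-5p left out) were 5p, compared with 63.4% to 75.9% in the other 5 samples. The same library was the highest in miR-669c-5p, miR-466i-5p and miR-669o-5p.

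**Figure D4:**
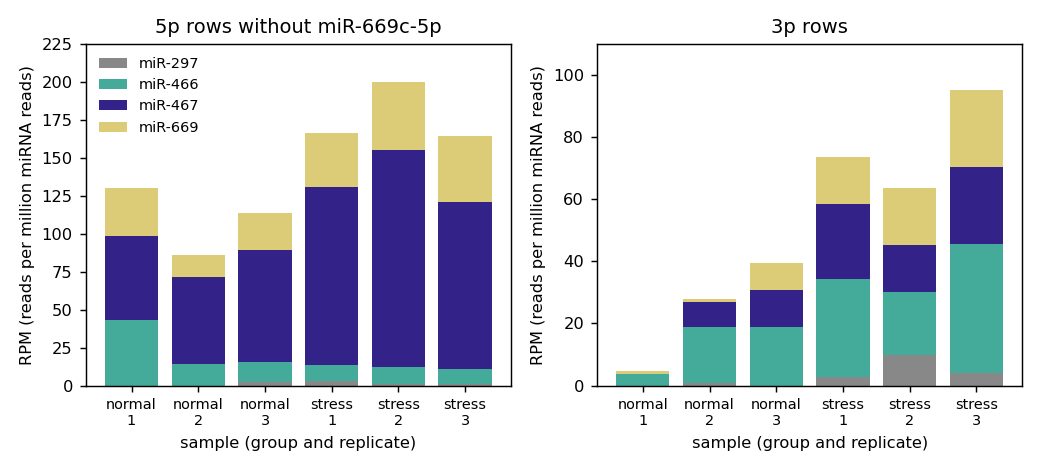
RPM in each sample, stacked by family, for 5p rows without miR-669c-5p (left) and 3p rows (right; the vertical scales differ). The 3p sum is 4.62 in normal replicate 1 and 63.7 to 95.0 in the stress samples. miR-467 makes up most of the 5p sum in every sample but normal replicate 1 (55.4 of 130.2 RPM).

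Split by sequence instead of arm, the 15 members with ACACAC stood at 8.37, 22.4 and 36.4 CPM in normal and 45.2, 39.1 and 60.4 CPM in stress samples on the TMM scale, without overlap. Of these 15, 14 are 3p rows, so this is largely the 3p sum again and not a second result. The 19 members with UGUGUG other than miR-669c-5p and miR-466i-5p stood at 49.0, 26.3 and 38.3 CPM in normal and 29.7, 39.6 and 36.0 CPM in stress samples, and the groups overlapped. With miR-466i-5p kept in, the 20 members stood at 95.6, 40.1 and 46.7 CPM in normal and 35.6, 44.9 and 37.4 CPM in stress samples, with means of 60.8 ± 30.3 and 39.3 ± 4.95 CPM (SD, n = 3), and the groups overlapped too; normal replicate 1 was the highest. Outside the cluster, 12 rows of the table hold UGUGUG and 4 of them were tested: 3 fell, 0 rose and 1 did not pass, against 10.2% lower among all tested rows, with a median log2 fold change of −2.47. The 2 with the smallest p-values were miR-672-5p (−2.04 ± 0.34 SE, adjusted p = 0.0044 in edgeR) and let-7b-5p (−2.27 ± 0.42, adjusted p = 0.0074).

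The tested rows outside the cluster whose log2 CPM was most like that of miR-669c-5p over the 6 samples were miR-672-5p (Pearson r = 0.995), let-7e-5p (0.989), let-7c-5p (0.988), let-7b-5p (0.984) and miR-574-5p (0.972). All 5 were highest in normal replicate 1 and lower in every stress than in every normal sample; miR-574-5p, for example, stood at 838.4, 193.3 and 121.4 CPM in normal and 37.8, 39.1 and 41.7 CPM in stress samples. Of the 5, miR-672-5p, let-7b-5p and miR-574-5p hold UGUGUG and are the same 3 rows counted above as lower, while let-7e-5p and let-7c-5p do not hold it. These values share their libraries and scaling, and any row that separates the groups will score high.

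In another imprinted miRNA array, the Dlk1-Dio3 cluster, which is expressed from the maternal allele, 1 of 9 tested rows fell, 0 rose and the median log2 fold change was −0.50. Among the male germ cell miRNAs, 3 of 18 tested rows fell, 0 rose and the median was −0.24. Of all tested rows, 10.2% fell and 2.54% rose, a share that the Dlk1-Dio3 count lies close to. The difference between these lists and the 1 of 8 members that fell was not tested.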

How the data were processed

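Small RNA libraries of cauda epididymal sperm, 3 normal and 3 stress samples, were grouped by sample title and disease state. Trizol RNA was made into libraries with an Illumina TruSeq RNA kit and sequenced at BGI, per the labels' protocols. Bowtie is named in the submitters' processing notes, with version, build and read assignment not given in the sources used here. Expected counts per miRNA were used as deposited, and 92.0% of them were whole within 0.001. The deposited piRNA and tRNA fragment tables were not used here.

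All rows, rounded, entered 1 two-sided quasi-likelihood fit (edgeR 4.0.16, R 4.3.3) with TMM scaling after filterByExpr (minimum count 10). Adjusted p-values are Benjamini-Hochberg over the tested rows, with a threshold of 0.05. The SE is the log2 fold change divided by the square root of F. log2 CPM for likeness used a prior count of 2. The fit was tested on simulated data. Alternatives were RLE scaling, the miRNA total, DESeq2 1.42.0, no filter, the replicate number as a block, each sample left out and, for sums, no combined or fractional rows. Exact permutation tests used SciPy 1.17.1. Members, lists and tests were chosen with earlier results of these data known. Named were all tested members, the 6 others with most reads, the top member of each family, the 2 UGUGUG rows with the smallest p and the 5 rows most like miR-669c-5p. Seeds were read from the deposited sequences, and the annotation was GENCODE M21. Of 54 member names, 4 had a RefSeq (GRCm38.p6) mature sequence. No column pair was alike (lowest chi-square per degree of freedom 38.5).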

Additional observations from a re-analysis of the deposited data

How the results depend on the processing

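The call of miR-669c-5p held in edgeR and in DESeq2 under every alternative run, with edgeR log2 fold changes from −3.61 to −2.57 when 1 sample was left out (adjusted p 0.00044 to 0.020). The number of members called was 1, but 3 scaled to the miRNA total, 2 with no filter on low counts and 1 to 2 when 1 sample was left out; the number of all miRNA rows called was 30 (24 lower, 6 higher), but 106 scaled to the miRNA total (10 lower, 96 higher, the median of all rows at 0.76), 47 with DESeq2, 49 with no filter, and 17 (without stress replicate 3) to 55 (without normal replicate 3) when 1 sample was left out. With RLE scaling 44 rows were called (28 lower, 16 higher). The log2 ratio of the summed share of all members, stress over normal, was −1.73, but −2.51 as TMM-scaled CPM, −2.40 without combined or fractional rows and −2.06 to −1.05 with 1 sample left out. That of the members without miR-669c-5p was 0.93, but 0.18 as TMM-scaled CPM. Directions of uncalled members turned: miR-669o-5p scaled to the miRNA total (0.17) and with 1 sample left out (−0.92 to 0.26, above 0 without normal replicate 1), miR-467e-5p with 1 sample left out (−0.057 to 0.50, below 0 without stress replicate 1), and miR-467a-5p and miR-467b-5p likewise (−0.24 to 0.37, below 0 without normal replicate 1 or stress replicate 2). The cause of these changes was not tested. With the replicate number as a block, 1 member and 28 rows were called (miR-669c-5p at −3.01). Equal numbers deviated together with r of 0.11, −0.21 and 0.12, and unequal numbers with r from −0.32 to 0.25. With 3 samples per group these values cannot show whether the numbers pair the samples. Depth limits the 39 untested members, of which 22 had under 10 reads in all.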
